A study of Mus musculus with 8 samples.

Results

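Fcer1g encodes the common γ chain, a small adaptor that activating Fc receptors need to reach the surface of a macrophage and to signal. The genes described here are 57 neighbours of Fcer1g on mouse chromosome 1 that belong to no Fc receptor, SLAM or IFI200 family. They were chosen by place, with earlier results of these data known. They were found on the array by gene symbol: 50 of the 57 had at least 1 named probe, with 68 probes in all, of 25697 probes and 16593 named genes measured. No named probe was found for Atf6, Fcrlb, Pcp4l1, Tomm40l, Klhdc9, Kcnj10 or Tagln2, which were not analysed here. In the order of protein-coding genes in the RefSeq table of the GRCm38.p6 assembly, the probed genes run from Xcl1, 61 genes before Fcer1g, to Cadm3, 59 genes after it. The place given with a gene below is this number, negative before Fcer1g and positive after it.

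Messenger RNA was measured in resident peritoneal macrophages of C57BL/6 mice on 8 Illumina MouseRef-8 v2.0 arrays, with 2 samples in each of 4 groups. The groups were FcgKO cells, which carry a knockout of the γ chain, with IFNγ at 10 ng/ml for 6 h, WT cells with the same IFNγ, unstimulated FcgKO cells and unstimulated WT cells. All cells had adhered overnight in medium with serum and a supernatant of L929 cells that holds M-CSF, and floating cells had been washed off. The study stimulated cells in duplicate, and the labels do not say whether a duplicate came from another mouse, so p-values here speak to the variation among these samples alone, and that variation may be technical.

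A knockout allele is inherited together with the chromosome around it. Breeding onto another strain replaces the rest of the genome faster than it replaces the genes next to the selected allele, so neighbours can differ in sequence between knockout and control mice. How the FcgKO allele was made, in which strain, and for how many generations it was bred are not given in the sources used here. Every FcgKO sample carries both the missing chain and whatever lies beside it, so an effect of the one and an effect of the other on a neighbour cannot be told apart in this design, nor can a sequence difference under a probe. IFNγ was applied to both genotypes and does not share that link.

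The values below are the deposited intensities on a linear scale, and the log2 differences are from limma after background correction, with their standard errors (SE) and p-values adjusted by Benjamini-Hochberg over all 25697 probes. A probe was called where the adjusted p was below 0.05. Of all 25697 probes, 2973 had an unadjusted p below 0.05 between genotypes with IFNγ and 1993 at rest. So did 5023 for the IFNγ response in FcgKO cells, 5219 in WT cells and 1756 for the difference of these responses. Counts by unadjusted p below stand beside these. The middle probe of each array had an intensity of about 103, and a probe at or below it is described as dim, since no detection call could be assigned to a sample. The targeted gene bore out the labels: Fcer1g had intensities of 107 and 98.5 in FcgKO samples with IFNγ, against 16987 and 18350 in WT samples with IFNγ, and 95.7 and 95.6 in unstimulated FcgKO samples, against 17567 and 18350 in unstimulated WT samples. All 7 macrophage markers with a probe (Adgre1, Itgam, Mertk, Lyz2, Cd14, Icam2 and Gata6) were above the array median on all 8 arrays. Of their 11 probes limma called 1 between genotypes with IFNγ, Mertk, lower in FcgKO (log2 -0.71, SE 0.12, adjusted p = 0.00784), and 0 at rest. An unadjusted p below 0.05 was found for 4 of the 11 with IFNγ and 2 at rest. Between the 2 arrays of a group, the log2 values of all probes correlated at r = 0.996 or 0.997.

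Calls between genotypes made up a larger share of the neighbours' probes than of all probes, and calls for IFNγ a like share. Between FcgKO and WT samples with IFNγ, 8 of the 68 probes were called (11.8%), against 2.6% of all probes. The 7 that were lower in FcgKO compare with 1.47% of all probes called lower, and the 1 that was higher with 1.13% called higher. Between unstimulated FcgKO and WT samples, 7 of the 68 were called (10.3%), against 0.724% of all probes, and all 7 were lower in FcgKO, against 0.479% of all probes called lower. For the IFNγ response in FcgKO cells, 7 of the 68 were called (10.3%), and 10.3% of all probes were called. By direction, 4 of the 68 rose and 3 fell, beside 4.6% and 5.75% of all probes. The response in WT cells gave 9 calls (13.2%), beside 11.5% of all probes, with 3 up and 6 down, beside 4.97% and 6.56% of all. The median log2 genotype difference over the 68 probes was -0.03 with IFNγ and -0.04 at rest, beside 0.00 and 0.00 over all probes. The medians for the IFNγ response were 0.02 in FcgKO and -0.03 in WT cells, and both were -0.01 over all probes.

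The arrays were also compared directly, by a description added after the values had been seen. All 4 FcgKO arrays lay on one side of all 4 WT arrays for 17 of the 68 probes (25%), beside 3.98% of all probes. FcgKO was the lower genotype for 15 of the 17, beside 2.15% of all probes, and the higher for 2, beside 1.83%. All 4 arrays with IFNγ lay on one side of all 4 unstimulated arrays for 11 of the 68 (16.2%), and this held for 16.2% of all probes. The 50 other named probes that lie between the same ends of the chromosome, with Fcer1g left out, gave 6 calls between genotypes with IFNγ (12%) and 8 at rest (16%). On chromosome 1 beyond those ends, 37 of 1205 probes were called between genotypes with IFNγ (3.07%) and 13 at rest (1.08%).

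The counts rest on few samples. The genotype count with IFNγ was 3 without WT replicate 1 with IFNγ, 4 without WT replicate 2 and 3 without FcgKO replicate 2. The count at rest was 4 without unstimulated FcgKO replicate 1 and 3 without its replicate 2.

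**Figure D1:**
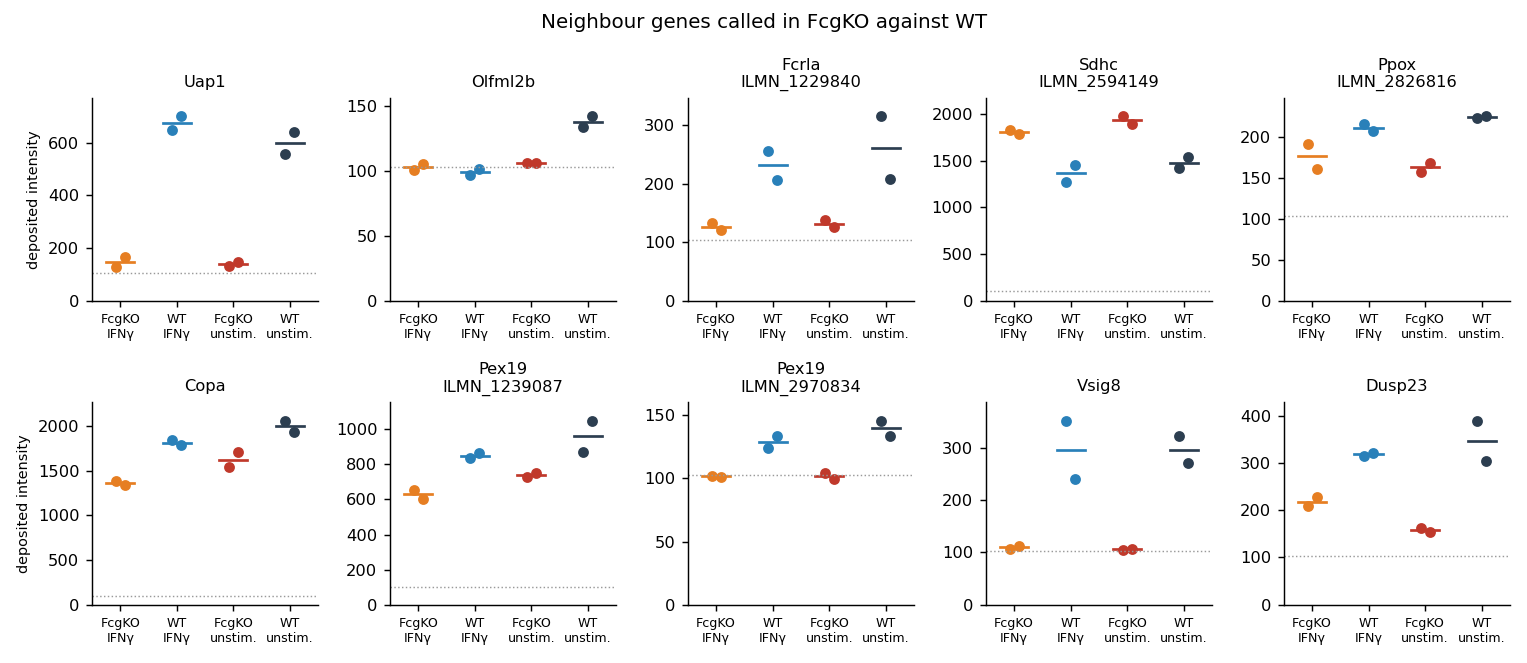
Deposited intensity (vertical axis, linear) of the 10 probes of neighbour genes called in FcgKO against WT in either condition. Each point is 1 array, the bar is the mean of 2 arrays, and the dotted line is the array median. Uap1 and Vsig8 in FcgKO samples lie near the median in both conditions, and Sdhc is the 1 gene with all 4 FcgKO arrays above all 4 WT arrays.

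The genotype calls that held at rest in every alternative were in a sugar nucleotide enzyme (Uap1), a membrane protein of the immunoglobulin superfamily (Vsig8) and a phosphatase (Dusp23). Their upstream sequences are shown first for that reason, together with those of Hsd17b7 and B4galt3, which responded to IFNγ in both genotypes. Each is the 250 bases before the gene start on the gene's own strand, from RefSeq on GRCm38.p6, and is the reference sequence, not that of these mice. The Uap1 stretch is chr1:170174965-170175214 on the minus strand, Vsig8 chr1:172555688-172555937 on the plus strand (the first of 2 annotated starts), Dusp23 chr1:172632975-172633224 on the minus strand, Hsd17b7 chr1:169969206-169969455 on the minus strand and B4galt3 chr1:171270078-171270327 on the plus strand. Capitals mark a CCAAT box in either orientation (CCAAT or ATTGG) and the E-box CACGTG.
Uap1: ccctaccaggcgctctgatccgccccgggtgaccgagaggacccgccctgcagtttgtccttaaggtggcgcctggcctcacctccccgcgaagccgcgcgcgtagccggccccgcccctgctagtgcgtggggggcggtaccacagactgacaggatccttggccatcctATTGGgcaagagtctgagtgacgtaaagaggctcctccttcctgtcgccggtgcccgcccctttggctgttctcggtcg
Vsig8: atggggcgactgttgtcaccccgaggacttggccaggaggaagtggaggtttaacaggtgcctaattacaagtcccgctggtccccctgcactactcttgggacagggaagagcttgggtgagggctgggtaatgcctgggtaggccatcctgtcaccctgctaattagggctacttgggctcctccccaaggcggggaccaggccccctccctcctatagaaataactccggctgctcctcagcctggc
Dusp23: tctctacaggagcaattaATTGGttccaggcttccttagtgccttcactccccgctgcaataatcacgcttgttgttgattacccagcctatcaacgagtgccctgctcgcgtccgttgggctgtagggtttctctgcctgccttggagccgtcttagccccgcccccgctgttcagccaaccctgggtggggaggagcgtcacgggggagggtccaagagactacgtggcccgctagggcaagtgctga
Hsd17b7: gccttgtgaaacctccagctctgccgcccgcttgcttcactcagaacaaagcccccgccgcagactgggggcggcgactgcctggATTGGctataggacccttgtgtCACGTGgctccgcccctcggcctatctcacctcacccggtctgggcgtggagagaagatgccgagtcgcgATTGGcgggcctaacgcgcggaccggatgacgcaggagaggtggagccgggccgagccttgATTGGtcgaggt
B4galt3: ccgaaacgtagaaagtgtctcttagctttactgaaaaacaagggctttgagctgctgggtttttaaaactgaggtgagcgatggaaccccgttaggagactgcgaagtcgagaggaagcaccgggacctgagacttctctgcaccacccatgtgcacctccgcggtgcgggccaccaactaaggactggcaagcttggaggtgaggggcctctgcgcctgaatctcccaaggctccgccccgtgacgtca
Promoter entries were found for 49 of the 57 genes, 61 starts in all. On both strands, a CCAAT box was in 44.3% of the 61 and in 33.8% of 32851 promoters of the mouse table. The E-box was in 6.56% of the 61 (Hsd17b7, Igsf9, Mael and Nr1i3) and in 6.02% of all. These are matches of letters, not sites.

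Uap1 (place -24) encodes the enzyme that makes UDP-N-acetylglucosamine, the sugar donor for glycan synthesis and for O-GlcNAc on proteins. Its probe ILMN_2502542 had intensities of 126 and 166 in FcgKO samples with IFNγ, against 649 and 701 in WT samples with IFNγ. Unstimulated FcgKO samples had 132 and 147, against 559 and 641 in unstimulated WT samples. All 4 FcgKO values were below all 4 WT values, with no overlap. The mean was 146 ± 28.8 in FcgKO and 675 ± 36.1 in WT with IFNγ (SD, n = 2 each), 4.62 times higher in WT, and 140 ± 11.3 and 600 ± 58.4 at rest, 4.3 times higher in WT. The log2 difference FcgKO minus WT was -2.55 (SE 0.15, adjusted p = 5.6e-06) with IFNγ and -2.44 (SE 0.15, adjusted p = 1.45e-05) at rest. IFNγ itself made no called difference to Uap1 in FcgKO (log2 0.07, adjusted p = 0.906) or in WT cells (log2 0.18, adjusted p = 0.609). Both genotype calls were kept in all 15 alternatives.

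A list of 20 genes covered the amino sugar metabolism around UDP-N-acetylglucosamine and its users (among them Pgm3, Nagk, Ogt and Dpagt1). Not all of the 20 make or use it. Of these genes limma called 0 between genotypes in either condition, and 6 of their 29 probes with IFNγ and 5 at rest had an unadjusted p below 0.05. Their log2 genotype differences ran between -0.25 and 0.30 with IFNγ and between -0.11 and 0.33 at rest, with medians of 0.04 with IFNγ and 0.06 at rest beside 0.00 over all probes. Of the 20, Gfpt1, Gnpnat1, Has2, Has3, Mgat2 and Oga were dim on every array and so could not be judged, and 10 had a probe above the array median on all 8 arrays. IFNγ lowered 3 of the 20 in FcgKO cells (Gnpda1, Dpagt1 and Renbp) and the same 3 with Nagk in WT cells, where Alg14 rose. By probe, 5 of 29 fell in FcgKO and 5 of 29 in WT, beside 5.75% and 6.56% of all probes. The 1 that rose in WT compares with 4.97% of all probes. Uap1l1, its paralogue, was among the 20.

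Vsig8 (place 44) encodes a membrane protein with V-set and immunoglobulin domains. Its probe had 108 and 113 in FcgKO samples with IFNγ, against 352 and 241 in WT samples with IFNγ, and 105 and 106 in unstimulated FcgKO samples, against 322 and 270 in unstimulated WT samples. FcgKO values were just above the array median throughout and did not overlap with WT. The WT mean was 2.7 times that of FcgKO with IFNγ and 2.8 times at rest. The log2 difference was -1.77 (SE 0.16, adjusted p = 0.000143) with IFNγ and -1.88 (SE 0.16, adjusted p = 0.000213) at rest, and both calls were kept in all 15 alternatives. The response of Vsig8 to IFNγ was not called in FcgKO (log2 0.08, adjusted p = 0.886) or in WT (log2 -0.02, adjusted p = 0.972).

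Dusp23 (place 47) encodes a small dual-specificity phosphatase, and it was called both for genotype and for IFNγ. Its probe had 208 and 227 in FcgKO samples with IFNγ, against 315 and 322 in WT samples with IFNγ, and 162 and 153 in unstimulated FcgKO samples, against 390 and 304 in unstimulated WT samples. In FcgKO, both samples with IFNγ were above both unstimulated ones, while in WT the conditions overlapped. The log2 genotype difference was -0.64 (SE 0.11, adjusted p = 0.0114) with IFNγ, a WT mean 1.46 times that of FcgKO, and -1.34 (SE 0.11, adjusted p = 0.000207) at rest, 2.21 times. IFNγ raised Dusp23 in FcgKO (log2 0.58, SE 0.11, adjusted p = 0.00617), and its difference in WT was not called (-0.12, SE 0.11, adjusted p = 0.673). The responses differed by 0.70 (SE 0.16), which was not called (adjusted p = 0.273). The call at rest was kept in all 15 alternatives. The call with IFNγ was lost without either WT sample or without FcgKO replicate 1, with adjusted p up to 0.12, and the FcgKO response was lost without unstimulated FcgKO replicate 2 (adjusted p = 0.0664) or FcgKO replicate 2 with IFNγ.

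**Figure D2:**
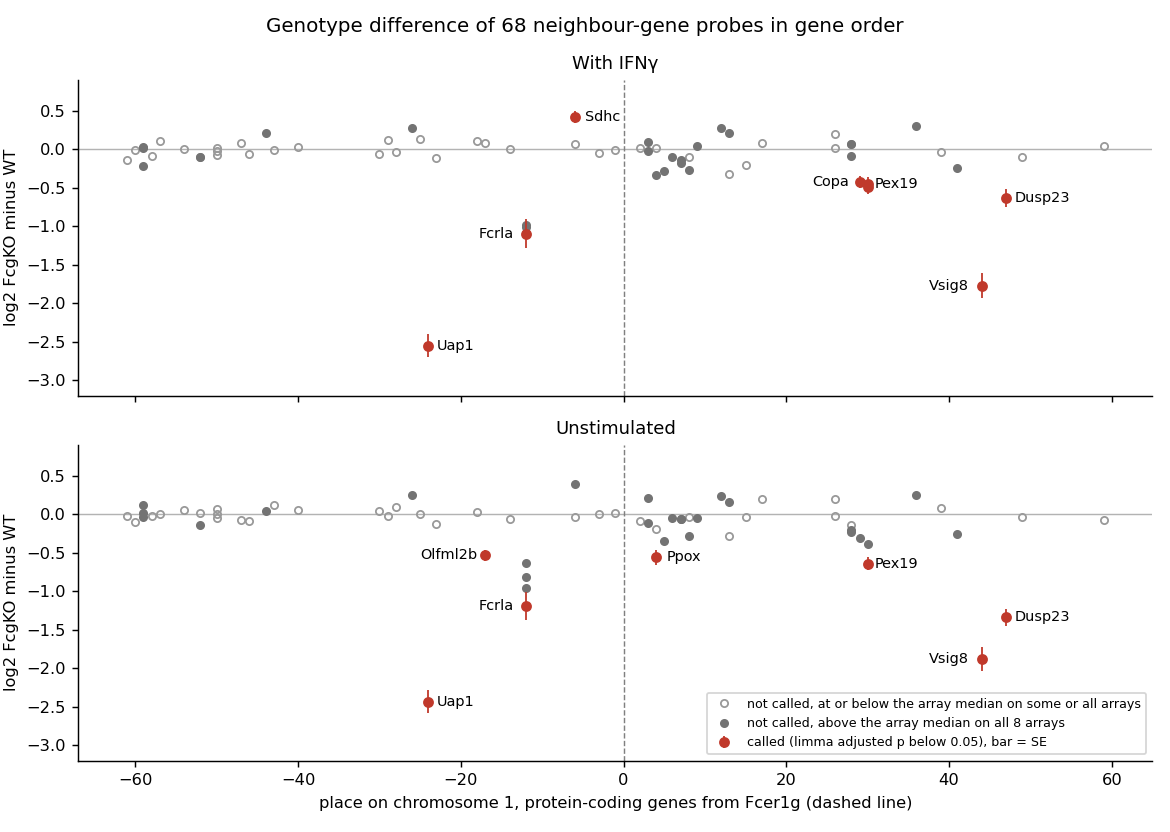
Log2 FcgKO minus WT (vertical axis) of all 68 probes in gene order, counted in protein-coding genes from Fcer1g (horizontal axis), with IFNγ above and unstimulated below. Red points are called, with bars for the SE. Called genes lie between Uap1 at place -24 and Dusp23 at place 47, and most open points, which are dim probes, lie near 0.

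Along the chromosome, the 9 genes called for genotype lay between Uap1 and Dusp23. Of 18 probed genes before Uap1 (places -61 to -25) 0 were called, but only 4 of those 18 (Sft2d2, Rcsd1, Tada1 and Hsd17b7) had a probe above the array median on all 8 arrays. The 9 genes from place -24 to -1 held 4 called genes, and 3 of the 9 were that bright. The 21 genes from place 2 to 47 held 5 called genes, and 16 of the 21 were that bright. The genes after Dusp23, Apcs and Cadm3, were dim on some or all arrays and 0 were called. Called genes stood beside uncalled ones: Copa and Pex19 (places 29 and 30) follow Ncstn (place 28), whose 3 probes had adjusted p between 0.621 and 0.92 for genotype.

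Fcrla (place -12) encodes an intracellular relative of the Fc receptors that B cells make, and it had 4 probes. ILMN_1229840 had 132 and 121 in FcgKO samples with IFNγ, against 257 and 207 in WT samples with IFNγ, and 137 and 126 in unstimulated FcgKO samples, against 315 and 208 in unstimulated WT samples. Its log2 difference was -1.10 (SE 0.19, adjusted p = 0.00849) with IFNγ and -1.19 (SE 0.19, adjusted p = 0.0136) at rest. The other 3 probes were brighter and not called in this fit, which takes no account of the replicate number, with log2 differences between -1.08 and -0.99 with IFNγ (adjusted p between 0.0714 and 0.098) and between -0.95 and -0.63 at rest (between 0.182 and 0.665). The brightest, ILMN_1236111, had 506 and 442 in FcgKO with IFNγ, against 1120 and 746 in WT with IFNγ, and 677 and 517 in unstimulated FcgKO, against 1490 and 833 in unstimulated WT. FcgKO and WT arrays did not overlap for 3 of the 4 probes, and for the fourth, ILMN_2971171, unstimulated FcgKO replicate 1 at 445 was above WT replicate 2 with IFNγ at 420 and unstimulated WT replicate 2 at 411. Both calls of ILMN_1229840 were lost without background correction. The call with IFNγ was also lost without WT replicate 1 (adjusted p = 0.125) or FcgKO replicate 2, and the call at rest without either unstimulated FcgKO sample, with adjusted p up to 0.165.

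Markers of other cell types moved in part with Fcrla. Replicate 1 was above replicate 2 in all 16 pairs of Fcrla (4 probes in 4 groups), and in all 12 pairs of Cd79a and Cd79b (3 probes), which encode the signalling chains of the B cell receptor. Among the other B cell markers, replicate 1 was the higher in 4 of 4 pairs of Ms4a1, 6 of 8 of Cr2 and 8 of 12 of Fcer2a. It was the higher in 3 of 8 pairs of Blnk and 1 of 4 of Pax5. The order was not that of B cell markers alone. It held in all 16 pairs of the T cell markers Cd2, Cd3d, Cd3e and Cd3g. Among macrophage markers it held in 4 of 4 pairs of Cd14, but in 4 of 12 of Adgre1 and 3 of 12 of Lyz2. For Itgam and Mertk it held in 2 of 4 pairs, for Icam2 in 1 of 4 and for Gata6 in 0 of 4. Of the other T and NK cell markers, it held in 3 of 4 pairs of Cd4 and of Nkg7. It held in 2 of 4 of Ncr1 and of Klrb1c, and in 0 of 4 of Cd8a. The 12 probes of 7 B cell markers summed to 3012 and 2522 in FcgKO with IFNγ, against 3809 and 2832 in WT with IFNγ, and to 3537 and 3052 in unstimulated FcgKO, against 4447 and 3283 in unstimulated WT. Of these 7 genes limma called 0 between genotypes (probes with an unadjusted p below 0.05 numbered 0 with IFNγ and 1 at rest), and Pax5 was dim on every array. Of 9 mast cell markers, limma called 7 lower in FcgKO with IFNγ and 5 at rest. By probe these were 10 of 12 with IFNγ and 7 of 12 at rest, beside 1.47% and 0.479% of all probes. Over these markers, log2 differences ran between -1.23 and 0.06 with IFNγ and between -1.25 and -0.03 at rest. Their 12 probes summed to 2451 and 3087 in FcgKO with IFNγ, against 4714 and 4453 in WT with IFNγ, and to 2302 and 2620 in unstimulated FcgKO, against 3850 and 4130 in unstimulated WT, with Ms4a2 dim on every array. Of 9 T and NK cell markers, 9 fibroblast, mural and mesothelial markers and 6 markers of dividing cells, limma called 0 between genotypes, and among their probes 0, 1 and 2 had an unadjusted p below 0.05 with IFNγ and 0, 0 and 1 at rest. Cd4, Cd8a and Ncr1 were dim on every array, as were 7 of the 9 fibroblast, mural and mesothelial markers (Col1a1, Col1a2, Col3a1, Krt19, Msln, Pdgfra and Pdgfrb). These could not be judged, and only 1 of those 9 had a probe above the array median on all 8 arrays. Fewer cells of a type and less RNA per cell cannot be told apart in these bulk samples, and the part of either cell type in the Fcrla result or in the other genotype differences was not tested.

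**Figure D3:**
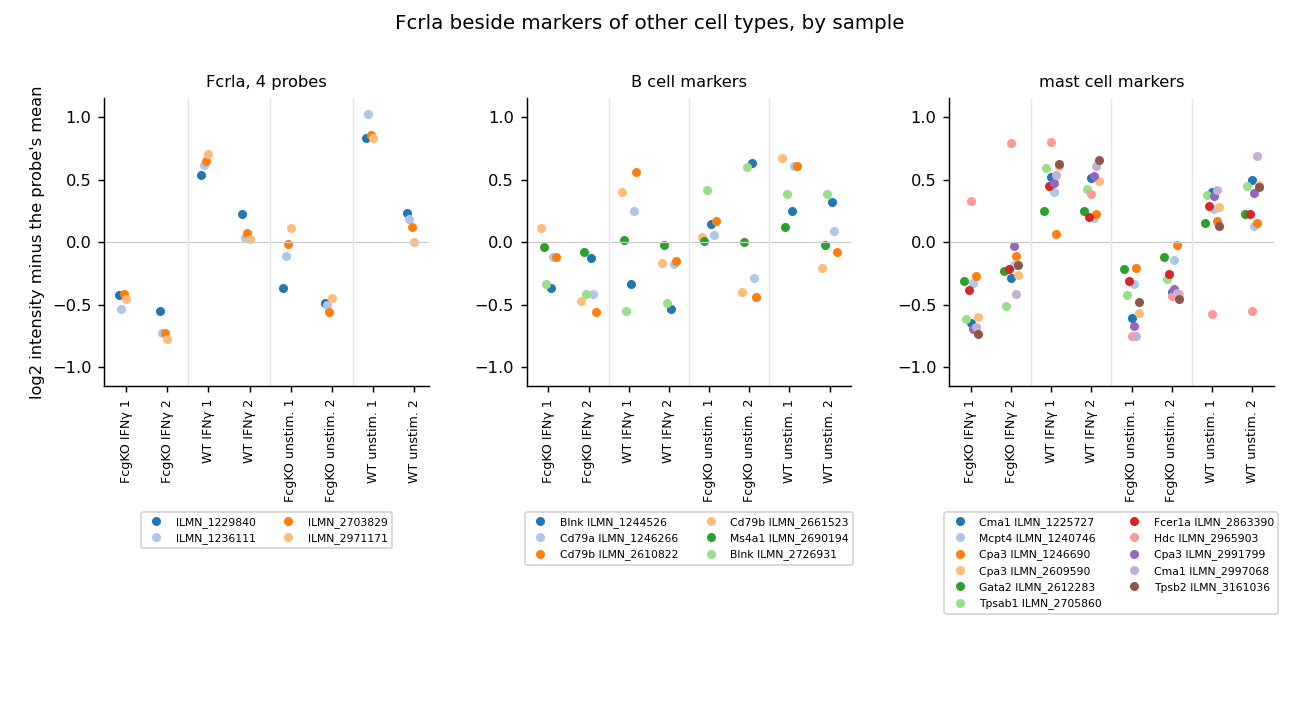
Log2 intensity of each probe minus its own mean over the 8 arrays (vertical axis) by array (horizontal axis), for Fcrla, for B cell markers and for mast cell markers above the array median on all arrays. All 4 FcgKO arrays lie below all 4 WT arrays for 3 of the 4 Fcrla probes and, within each group, replicate 1 lies above replicate 2. Most mast cell probes lie below 0 in FcgKO and above 0 in WT, with Hdc an exception.

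Pex19 (place 30) encodes the chaperone that brings membrane proteins to the peroxisome. ILMN_1239087 had 656 and 604 in FcgKO samples with IFNγ, against 834 and 864 in WT samples with IFNγ, and 726 and 750 in unstimulated FcgKO, against 870 and 1049 in unstimulated WT. Neither pair overlapped. The log2 difference was -0.45 (SE 0.09, adjusted p = 0.0247) with IFNγ and -0.39 (adjusted p = 0.116) at rest. The second probe, ILMN_2970834, had 102 and 101 in FcgKO with IFNγ, against 124 and 134 in WT with IFNγ, and 104 and 99.7 in unstimulated FcgKO, against 146 and 134 in unstimulated WT. It was called with IFNγ (log2 -0.49, SE 0.08, adjusted p = 0.00794) and at rest (-0.64, SE 0.08, adjusted p = 0.00404), and with IFNγ, where both FcgKO values were dim, it was at least 1.25-fold lower in FcgKO. With IFNγ, ILMN_1239087 lost its call with an offset of 16, without either WT sample and without FcgKO replicate 2, and ILMN_2970834 without replicate 2 of either genotype. The highest adjusted p was 0.195 for ILMN_1239087 and 0.105 for ILMN_2970834 without WT replicate 2 with IFNγ, and 0.0674 at rest for ILMN_2970834 without unstimulated FcgKO replicate 2.

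Copa (place 29) encodes the α subunit of coatomer, the coat of vesicles that return from the Golgi to the endoplasmic reticulum. It had 1380 and 1338 in FcgKO samples with IFNγ, against 1838 and 1787 in WT samples with IFNγ, and 1538 and 1707 in unstimulated FcgKO, against 2059 and 1930 in unstimulated WT. All FcgKO values were below all WT values. The difference was called with IFNγ (log2 -0.42, SE 0.08, adjusted p = 0.0112) and not at rest (-0.30, adjusted p = 0.139), and the call was lost with an offset of 16 (adjusted p = 0.147), without either WT sample with IFNγ or without FcgKO replicate 2. Of 8 genes with a probe, 7 for other coatomer subunits and Arf1, which recruits the coat, limma called 0 between genotypes. Of their 17 probes, 6 with IFNγ and 0 at rest had an unadjusted p below 0.05, beside 2973 and 1993 of all 25697 probes. Their log2 differences with IFNγ went both ways, between -0.21 (Copg1) and 0.36 (Copz2), with a median of -0.003. The largest were of Copz2 probes that were higher in FcgKO, where Copa was lower.

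Sdhc (place -6) encodes a membrane anchor of succinate dehydrogenase, the respiratory complex that also serves the citric acid cycle. ILMN_2594149 had 1832 and 1785 in FcgKO samples with IFNγ, against 1276 and 1452 in WT samples with IFNγ, and 1978 and 1895 in unstimulated FcgKO, against 1420 and 1540 in unstimulated WT. FcgKO was the higher genotype on every array. The log2 difference was 0.42 (SE 0.08, adjusted p = 0.0191) with IFNγ and 0.40 (SE 0.08, adjusted p = 0.0597) at rest. With IFNγ the call was lost with an offset of 16, without WT replicate 1 (adjusted p = 0.187) and without either FcgKO sample. The other Sdhc probe was dim on all arrays. Among its partners Sdhb and Sdhd and the assembly factors Sdhaf1 and Sdhaf2, 4 genes, limma called 0 between genotypes, with 0 of 6 probes at an unadjusted p below 0.05 in either condition.

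Ppox (place 4) encodes protoporphyrinogen oxidase of haem synthesis. ILMN_2826816 had 192 and 161 in FcgKO with IFNγ, against 216 and 207 in WT with IFNγ, and 158 and 169 in unstimulated FcgKO, against 223 and 225 in unstimulated WT. It was called at rest (log2 -0.56, SE 0.10, adjusted p = 0.026) and not with IFNγ (-0.33, adjusted p = 0.139). The call at rest was lost in 8 of 15 alternatives, among them those without any 1 of the unstimulated samples or of the WT samples with IFNγ, with adjusted p up to 0.278. Its second probe, ILMN_2706938, was close to the array median and not called.

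Olfml2b (place -17) encodes a secreted olfactomedin-domain protein and was low. It had 101 and 105 in FcgKO with IFNγ, against 97 and 101 in WT with IFNγ, and 106 and 106 in unstimulated FcgKO, against 134 and 142 in unstimulated WT. Unstimulated WT stood above the other 3 groups. FcgKO was lower at rest (log2 -0.53, SE 0.07, adjusted p = 0.00606) and not called with IFNγ (0.08, adjusted p = 0.789). IFNγ lowered it in WT cells at least 1.34-fold (log2 -0.69, SE 0.07, adjusted p = 7.98e-05), and the FcgKO response was not called (-0.07, adjusted p = 0.754). The responses differed by 0.62 (SE 0.10, adjusted p = 0.112), which was not called. The call at rest was lost without either unstimulated FcgKO sample, with adjusted p up to 0.0711.

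No neighbour was called for a genotype difference that depended on IFNγ. For the difference of the IFNγ responses limma called 0 of 68 probes, beside 0.0428% of all probes, and 2 of the 68 had an unadjusted p below 0.05. Of the 9 genes called for genotype, 5 were called in both conditions (Uap1, Fcrla, Pex19, Vsig8 and Dusp23), 2 with IFNγ alone (Sdhc and Copa) and 2 at rest alone (Olfml2b and Ppox).

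For an IFNγ response, 9 of the 50 probed neighbours were called in at least 1 genotype, and of these Olfml2b and Dusp23 were also called for genotype. By probe, the IFNγ calls were 10.3% in FcgKO and 13.2% in WT, beside 10.3% and 11.5% of all probes. Hsd17b7 (place -26), an enzyme of cholesterol synthesis, had 389 and 391 in FcgKO cells with IFNγ, against 695 and 748 in unstimulated FcgKO cells, and 297 and 362 in WT cells with IFNγ, against 553 and 683 in unstimulated WT cells. It fell in both genotypes, by a log2 difference of -0.95 (SE 0.12, adjusted p = 0.000249) in FcgKO and -0.99 (SE 0.12, adjusted p = 0.000177) in WT. Rcsd1 (place -52), which encodes a protein that binds the actin capping protein CapZ, averaged 373 ± 39.2 with IFNγ and 602 ± 73.6 without it in FcgKO cells, and 397 ± 34.7 and 658 ± 19.4 in WT cells (SD, n = 2 each). This fall was -0.75 (SE 0.11, adjusted p = 0.000832) in FcgKO and -0.79 (SE 0.11, adjusted p = 0.000492) in WT on the log2 scale. The second Rcsd1 probe was dim on 7 of 8 arrays and not called.

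Usf1 (place 13) encodes a transcription factor that binds E-boxes. ILMN_1254639 averaged 186 ± 0.0797 with IFNγ and 142 ± 1.38 without it in FcgKO cells, and 166 ± 3.53 and 131 ± 0.0608 in WT cells. It rose in both, by 0.49 (SE 0.07, adjusted p = 0.000393) in FcgKO and 0.44 (SE 0.07, adjusted p = 0.000772) in WT on the log2 scale. Its other probe, ILMN_2435505, dim on 3 arrays, was not called in FcgKO (log2 0.23, adjusted p = 0.204) or WT (0.27, 0.119). Between genotypes neither probe was called, and their signs were opposite. The log2 difference with IFNγ and at rest was 0.21 and 0.16 for ILMN_1254639, and -0.32 and -0.29 for ILMN_2435505. The calls of Hsd17b7, Rcsd1 and Usf1 were kept in all 15 alternatives in both genotypes.

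B4galt3 (place 3) encodes a galactosyltransferase that builds N-acetyllactosamine on glycans, and both of its probes rose. ILMN_1228544 averaged 206 ± 5.64 with IFNγ and 162 ± 5.5 without it in FcgKO, and 209 ± 4.24 and 172 ± 13.4 in WT, with log2 differences of 0.43 (adjusted p = 0.00445) and 0.34 (adjusted p = 0.016). ILMN_2930764 averaged 681 ± 99.2 with IFNγ and 519 ± 5.37 without it in FcgKO, and 641 ± 48.5 and 454 ± 46 in WT, with log2 differences of 0.41 (adjusted p = 0.0361) and 0.53 (adjusted p = 0.0074). In FcgKO, the call of ILMN_1228544 was lost without unstimulated FcgKO replicate 1, and that of ILMN_2930764 without either unstimulated FcgKO sample, FcgKO replicate 1 with IFNγ or either WT sample with IFNγ, with adjusted p up to 0.266. In WT, ILMN_1228544 lost its call without unstimulated WT replicate 2 or either WT sample with IFNγ, and ILMN_2930764 without replicate 1 of either WT group.

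The other 3 IFNγ calls were small. Sft2d2 (place -59), a vesicle transport protein, fell at ILMN_1260046, to 448 ± 8.41 with IFNγ against 565 ± 9.77 without it in FcgKO (log2 -0.36, adjusted p = 0.0115), and to 440 ± 31.9 against 525 ± 30.9 in WT (-0.27, adjusted p = 0.0451). Its other 2 probes were not called, and of these ILMN_2625035 lay the other way in WT, at 145 ± 3.24 with IFNγ against 129 ± 6.06 without it (log2 0.22, adjusted p = 0.21). Tada1 (place -44), a subunit of the SAGA histone acetyltransferase complex, was called in WT, at 239 ± 9.98 with IFNγ against 295 ± 24.6 without it (log2 -0.35, adjusted p = 0.0393), and not in FcgKO (-0.18, adjusted p = 0.379). Pfdn2 (place 9), a subunit of the chaperone prefoldin, was called in WT, at 1358 ± 71.5 with IFNγ against 1664 ± 97.4 without it (log2 -0.30, adjusted p = 0.0496), and not in FcgKO (-0.21, adjusted p = 0.216). Of 15 alternatives, 7 lost the Tada1 call, 8 the Pfdn2 call and 8 the Sft2d2 call in WT, with adjusted p up to 0.331. The samples without which a call was lost were either WT sample with IFNγ, either unstimulated FcgKO sample and unstimulated WT replicate 1 for Tada1, and the same with unstimulated WT replicate 2 for Pfdn2. For Sft2d2 in WT they were any FcgKO sample, unstimulated WT replicate 1 and WT replicate 2 with IFNγ, and in FcgKO either unstimulated FcgKO sample and FcgKO replicate 1 with IFNγ. Of 3 partner genes of prefoldin with a probe, Pfdn1, Pfdn4 and Vbp1, limma called 0 for the IFNγ response in either genotype, with an unadjusted p below 0.05 for 1 of 4 probes in FcgKO and 0 in WT.

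**Figure D4:**
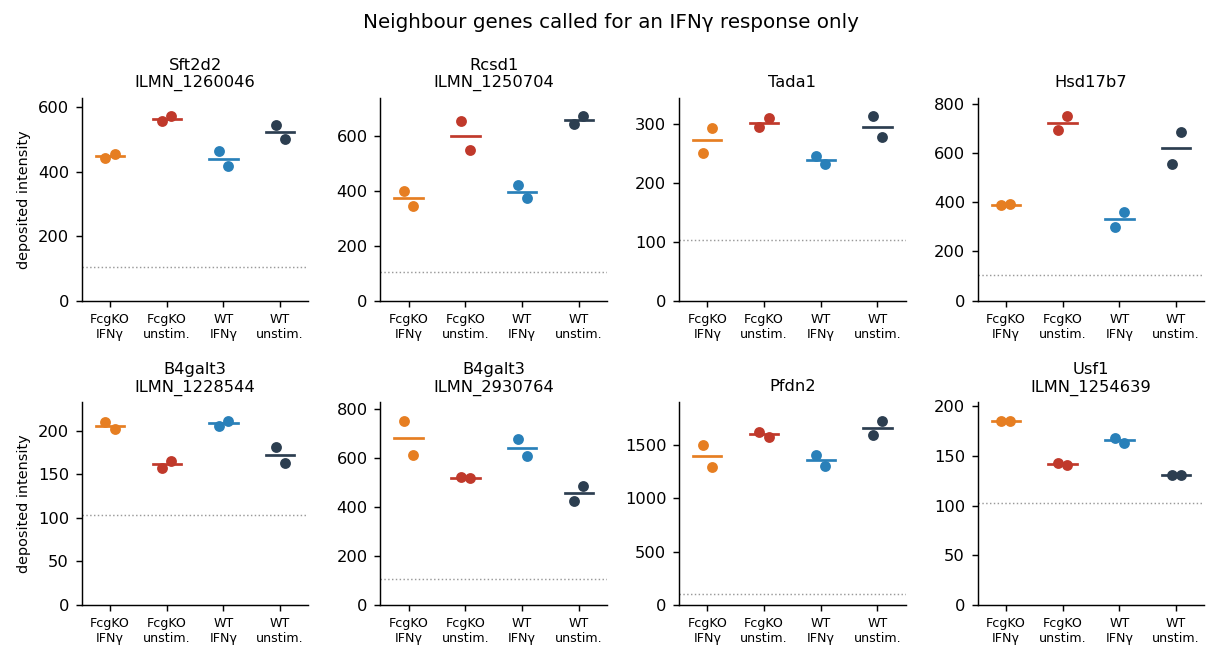
Deposited intensity (vertical axis, linear) of the 8 probes of neighbour genes called for an IFNγ response and not for genotype. Each point is 1 array, the bar is the mean of 2 arrays and the dotted line is the array median. Hsd17b7 and Rcsd1 are lower with IFNγ in both genotypes, and Usf1 and both B4galt3 probes are higher.

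Genotype and IFNγ differences were set side by side for the 31 probes above the array median on all 8 arrays. This is a description with no test, since both differences use the same samples. The absolute log2 difference between genotypes, averaged over conditions, was larger than that of IFNγ, averaged over genotypes, for 17 of the 31 probes (54.8%). Over all 10629 probes of the array that were as bright, it was larger for 3169 (29.8%). The median absolute difference of the 31 was 0.26 for genotype and 0.17 for IFNγ, beside 0.07 and 0.14 over the 10629. Of the 31, 23 were lower in FcgKO on average and 27 had the same sign in both conditions, beside 5036 and 6132 of the 10629.

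**Figure D5:**
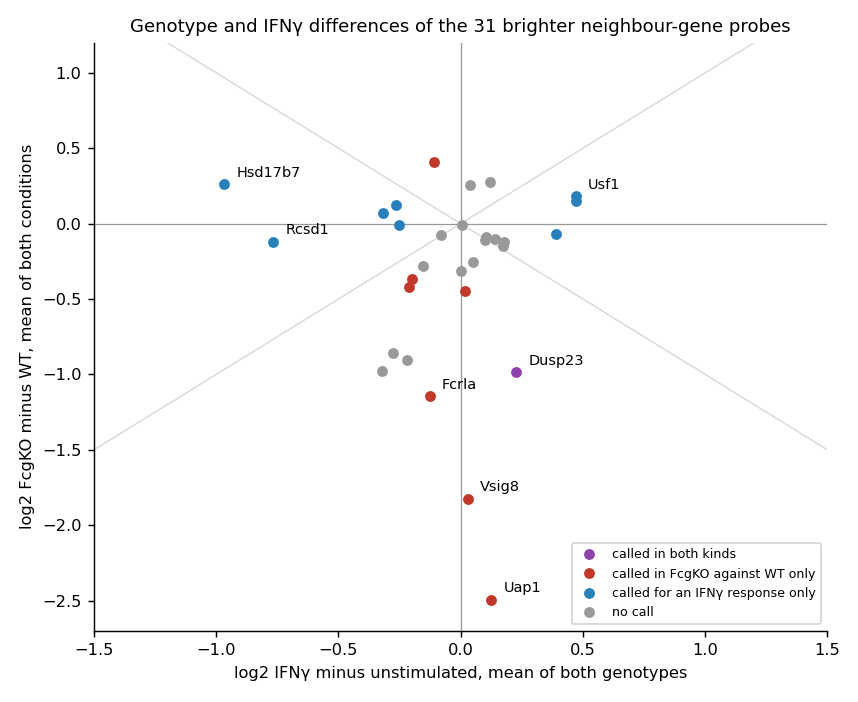
Log2 FcgKO minus WT, mean of both conditions (vertical axis), against log2 IFNγ minus unstimulated, mean of both genotypes (horizontal axis), for the 31 probes above the array median on all arrays. Each point is a probe and the grey diagonals mark equal sizes. Uap1, Vsig8, Dusp23 and Fcrla lie low near the vertical axis, and Hsd17b7, Rcsd1 and Usf1 lie along the horizontal axis.

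The other 34 probed genes had no call in any comparison. Only 8 of them had a probe above the array median on all arrays: Usp21, a deubiquitinase, Ufc1, the conjugating enzyme of the ubiquitin-like modifier UFM1, Dedd, a death effector domain protein, Nit1, of the nitrilase family, Arhgap30, Ncstn, the nicastrin subunit of γ-secretase, and Igsf8 and Igsf9, of the immunoglobulin superfamily. Their log2 differences lay between -0.35 and 0.30 for genotype and between -0.16 and 0.25 for IFNγ. Usp21 had 143 and 131 in FcgKO with IFNγ, against 165 and 153 in WT with IFNγ, and 133 and 136 in unstimulated FcgKO, against 163 and 161 in unstimulated WT. It separated the genotypes on every array but missed the threshold, with adjusted p = 0.112 with IFNγ and 0.0926 at rest. Nit1 probe ILMN_2754027 did likewise, with log2 -0.27 (adjusted p = 0.101) and -0.29 (adjusted p = 0.17). Igsf9, at log2 -0.25 with IFNγ and -0.26 at rest, was lower on every FcgKO array than on every WT array, and Igsf8, at 0.30 and 0.25, was higher, but neither was called. Ufc1, at 1378 ± 23.6 in FcgKO and 1475 ± 52.1 in WT with IFNγ and 1480 ± 56.2 and 1538 ± 147 at rest, had log2 differences of -0.10 (adjusted p = 0.753) and -0.05 (adjusted p = 0.947).

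Most of the uncalled neighbours were dim. Of the 50 probed genes, 18 had every probe at or below the array median on all 8 arrays: Tbx19, Tiprl, Gpr161, Adcy10, Gpa33, Mael, Pogk, Fmo9, Nuf2, Rgs5, Rgs4, Ddr2, Dusp12, Nr1i3, Apoa2, Adamts4, Pigm and Cadm3. A further 9 were above it on some arrays and had no probe above it on all: Xcl1, Cd247, Uhmk1, Nos1ap, Olfml2b, F11r, Itln1, Vangl2 and Apcs. Cd247, the ζ chain of the T cell receptor and the closest relative of the γ chain, had 3 probes with intensities between 90.4 and 108, none called. Xcl1, a chemokine of T and NK cells, lay between 92.4 and 109. Mael and Uhmk1 separated the genotypes on every array at differences of -0.06 and -0.11 (log2, with IFNγ) that were not called.

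Genotype calls among the partner genes of the other neighbours were found only with IFNγ, where 1.47% of all probes were called lower in FcgKO. Of 20 genes of the unfolded protein response, in which Atf6 is a sensor, Herpud1 was lower in FcgKO with IFNγ at ILMN_2790241 (log2 -0.46, adjusted p = 0.0107; its other probe -0.34, adjusted p = 0.0979) and 0 were called at rest, where 2 of 29 probes had an unadjusted p below 0.05. Of 5 γ-secretase genes beside Ncstn, Aph1b (log2 -0.49, adjusted p = 0.0304) and Psen2 (-0.53, adjusted p = 0.0192) were lower in FcgKO with IFNγ. These were 2 of 6 probes, a larger share than over all probes. At rest 0 were called, and 1 of 6 probes had an unadjusted p below 0.05. Of 6 genes of the UFM1 pathway limma called 0 between genotypes, with 0 of 11 probes at an unadjusted p below 0.05 in either condition. IFNγ lowered 3 of the 11 probes in FcgKO and 4 in WT cells, each of another gene, beside 5.75% and 6.56% of all probes. Cdk5rap3, Ufl1 and Ddrgk1 fell in both genotypes and Ufsp2 in WT. Other bright probes of Ufl1, Ddrgk1 and Ufsp2 were also lower with IFNγ but not called. Adjusted p was 0.579 in WT and 0.152 in FcgKO for Ufl1 ILMN_2927924, and 0.617 and 0.0642 for Ddrgk1 ILMN_2874128. The other Ufsp2 probes had 0.128 and 0.753 in WT.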

How the data were processed

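The 8 arrays fall into 4 groups of 2 by the sample titles. Per the submitters' processing notes, GenomeStudio was used; its version is not given in the sources used here. The authors' deposited intensity values were on a linear scale, already normalised between arrays (their sorted values lie within 0.00585 of each other in log2 units) and not background-subtracted. A second deposited table names its 16 value columns by array number only and was not used.

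Intensities were corrected with normexp (offset 50, which understates folds of dim probes), and log2 values of all 25697 probes deposited were fitted with 1 mean per group in limma 3.58.1 (lmFit, eBayes; R 4.3.3, with version 1.17.8 of the package data.table), with 4 residual degrees of freedom and a prior of 7.05. P-values were adjusted over all probes (Benjamini-Hochberg) and called below 0.05. The platform annotation names 1 gene for 23978 probes, several for 0 and none for 1719. Every probe of a gene was used. "At least" folds set the mean log2 intensity of the brighter group against the higher of the array median and the probe's own value. The fit was tested on simulated data.

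The genes and lists were chosen with earlier results of these data known. Named with values are genes called for genotype, with every sample, and genes called for IFNγ, with group means. Alternatives were no background correction, an offset of 16, added quantile normalisation, brighter probes only, 1 probe per gene, only the groups compared, the replicate number as a block, and leaving out each sample. Arrays have no read depth, and their number limits the precision.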

Additional observations from a re-analysis of the deposited data

How the results depend on the processing

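Of 31 probe results with a call, tried under 459 alternatives in all, the call was kept in 382 and lost in 77, and the sign changed in 0. Leaving out each sample in turn kept 12 of the 31 calls throughout. Without 1 sample, the count of called neighbour probes ran between 3 and 11 for FcgKO against WT with IFNγ (8 with all samples), between 3 and 7 at rest (7), between 4 and 7 for the IFNγ response in FcgKO (7), where it was 4 without either unstimulated FcgKO sample, between 5 and 8 in WT (9), where it was 5 without WT replicate 2 with IFNγ, and between 0 and 1 for the difference of responses (0), where the call without unstimulated WT replicate 2 was Dusp23. An offset of 16 gave 5 genotype calls with IFNγ and 5 for the IFNγ response in WT. Over all probes, the genotype count ran between 304 and 754 with IFNγ (667) and between 66 and 245 at rest (186) without 1 sample.

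The labels do not say that a replicate number marks a shared mouse or day, and the deviations of same-numbered samples correlated between -0.03 and 0.20. With the replicate block the count at rest was 11, and the 4 calls gained were the other 3 Fcrla probes (adjusted p between 0.000926 and 0.0117) and Sdhc (0.0394). With IFNγ the 3 gained were the same Fcrla probes, and the count for the difference of responses was 1, Olfml2b. The log2 differences of Fcrla were the same with and without the block, which takes out a difference shared by same-numbered replicates. For Fcrla, replicate 1 was above replicate 2 in all 16 pairs. What the replicate number stands for was not tested, nor was the cause of the Sdhc and Olfml2b changes. Dim probes, 22 of the 68 on all arrays, limit what could be called.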
